A study of Mus musculus with 28 samples.

Results

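The 8 genes described here encode the transcription factors Tfe3, Tfeb and Mitf, the folliculin complex (Flcn, Fnip1 and Fnip2) and the Rag GTPases Rragc and Rragd, which tie these factors to the lysosome. They were taken by symbol from the 30386 genes of the series table, and all 8 were found, once each. The cells were E14, a mouse embryonic stem cell line derived from the blastocyst, profiled by 3′ digital gene expression, an RNA sequencing method that counts the ends of polyadenylated transcripts. All 28 libraries came from unedited cells of that line on gelatin in N2B27, a serum-free medium, and were plated at single cell density in 2iL, the GSK3 inhibitor CHIR99021, the MEK inhibitor PD0325901 and the cytokine LIF. One group (2iL) stayed in it, and 4 groups spent 24, 48, 96 or 120 h without it. Another 2 groups spent 48 or 96 h without it and got it back for the last 24 h before collection (48 h + 2iL and 96 h + 2iL). Each group had 4 libraries, 1 from each of experiments 1 to 4. The labels do not say whether experiments were separate cultures, so p-values measure the spread between these libraries, which may be technical. The collection times in the treatment protocol do not include 120 h, which is taken from the sample labels and the design text.

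TFE3, TFEB and MITF are basic helix-loop-helix factors that bind E-boxes in the promoters of lysosomal and autophagy genes. Their activity is set largely by where they are in the cell: folliculin with its partner FNIP1 or FNIP2 acts on RagC and RagD at the lysosome surface, which lets mTORC1 phosphorylate the factors and holds them in the cytoplasm. In mouse embryonic stem cells folliculin and its partners are known as drivers of exit from the naive state, the unrestricted pluripotent state held by 2iL, and nuclear TFE3 is known to sustain that state, with Esrrb among its targets. The values below are RNA levels, and the location and phosphorylation of the proteins were not measured.

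Levels are CPM, a gene's counts as parts per 1000000 of the library's counts in genes, after TMM scaling, given as mean ± SD (n = 4), and changes are log2 fold changes ± standard error. A gene is said to have risen or fallen where the Benjamini-Hochberg adjusted p of edgeR's quasi-likelihood test, over all 11080 genes tested, was under 0.05. All 8 genes passed the filter on low counts. Every comparison against 2iL shares the same 4 2iL libraries, so those comparisons are not independent of each other. In bulk samples, fewer cells expressing a gene and less RNA per cell cannot be told apart.

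Gene counts per library ranged from 1554830 to 2828694, and 13021 to 14923 genes were detected. The summed level of 16 naive and general pluripotency genes was 3601 to 4335 CPM in the 2iL libraries and 359 to 446 CPM at 120 h, while that of 10 neural progenitor genes was 31.2 to 67.6 CPM in 2iL and 1012 to 2443 CPM at 120 h. Formative and primed epiblast genes summed to 194 to 283 CPM in 2iL and 2210 to 3033 CPM at 48 h. Over all 28 libraries the primitive endoderm list summed to 16.6 to 79.5 CPM, the trophoblast list to 19.5 to 138 CPM and the fibroblast list to 284 to 809 CPM. The 96 h and 96 h + 2iL libraries of experiment 3 stood apart within their groups. At 96 h that library had 498 CPM of the pluripotency genes and 1588 CPM of the neural progenitor genes, against 585 to 753 CPM and 524 to 864 CPM in the other 3. In 96 h + 2iL it had 549 CPM of the pluripotency genes against a group median of 1053 CPM and 2479 CPM of neural progenitor genes, the highest of its group. Results that use these libraries are given without them where that changes them. The 48 h + 2iL library of experiment 3 also weighed on its group. Without it 759 genes differed between 48 h + 2iL and 2iL, and with it 1288.

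Across the 7 groups, 5 of the 8 genes changed: Tfe3 (adjusted p = 6.75e-08), Tfeb (8.08e-11), Mitf (4.33e-17), Fnip1 (1.19e-05) and Rragd (0.00173). Of all genes tested, 62.3% changed in the same edgeR test. Flcn (0.114), Fnip2 (0.584) and Rragc (0.0989) did not pass it. The 5 genes did not move together. Tfe3 rose in the first days without 2iL and then came down, Mitf fell from the first day, Tfeb fell late, Fnip1 fell at 48 h and rose when 2iL was given back at that point, and Rragd was higher at 96 h. The plot of the 8 genes in every library shows these courses.

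**Figure D1:**
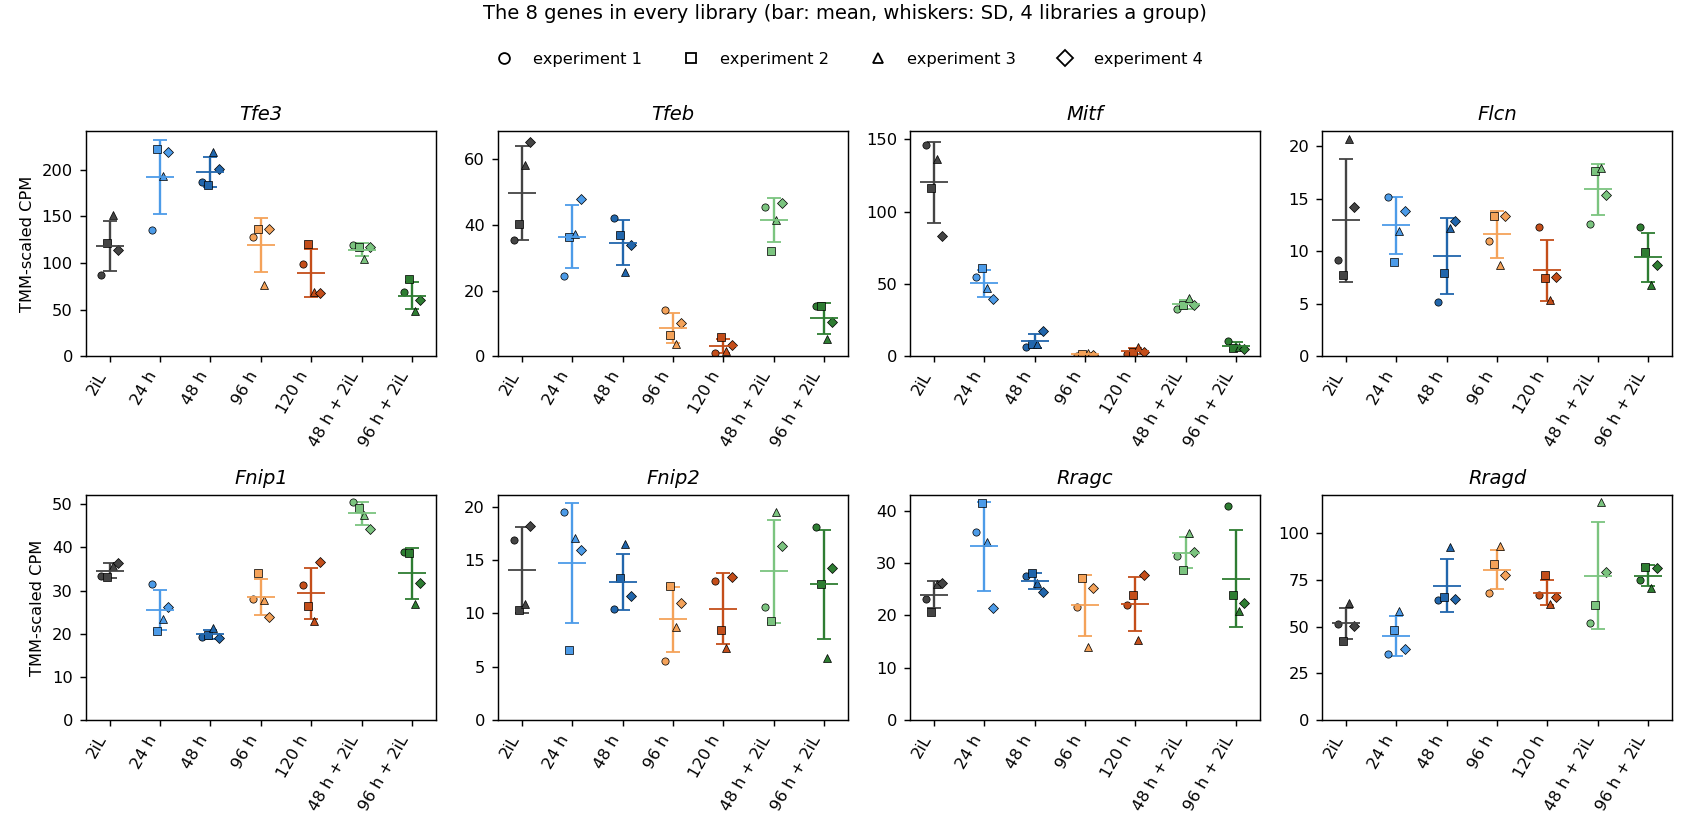
Level of each of the 8 genes (TMM-scaled CPM, linear axis from 0) in the 7 groups. Points are single libraries with 1 symbol per experiment, horizontal bars are means and whiskers are SD over 4 libraries. Tfe3 is highest at 24 and 48 h, Mitf drops from a mean of 120 CPM in 2iL to 1.47 CPM at 96 h, and the libraries of every pair of groups overlap for Fnip2.

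Tfe3 (ENSMUSG00000000134, chromosome X, 7762560 to 7775202, plus strand, GRCm38) encodes the factor whose nuclear form sustains the naive state. In 2iL its level was 87.0, 121, 151 and 114 CPM in experiments 1 to 4. At 24 h it was 136, 222, 193 and 218 CPM, and at 48 h 187, 183, 219 and 201 CPM. All 4 libraries at 48 h lay above all 4 in 2iL, while at 24 h experiment 1 lay within the 2iL range. Tfe3 therefore rose on withdrawal, by 0.70 ± 0.19 at 24 h (adjusted p = 0.00981) and 0.74 ± 0.19 at 48 h (0.00333), in 4 of 4 experiments at both times. Among the 8 genes, Tfe3 was the only one that rose in either comparison, in which 7.68% and 14.6% of all genes rose, and 28% of all genes showed no overlap at 48 h.

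The rise of Tfe3 did not last. At 96 h its level was 128, 137, 76.3 and 136 CPM, and at 120 h it was 98.9, 121, 69.3 and 67.9 CPM. The 96 h mean, 119 ± 28.9 CPM, was next to the 2iL mean, 118 ± 26.4 CPM (0.01 ± 0.19, adjusted p = 0.973), and the change from 48 h was -0.72 ± 0.19 (0.00555), where 21.5% of all genes changed. Without the 96 h library of experiment 3, at 76.3 CPM, these values were 0.17 (0.504) and -0.56 (0.0381). At 120 h the mean was 89.2 ± 25.4 CPM, -0.41 ± 0.19 against 2iL, which did not pass the test (0.0794). That comparison passed it with the experiment number as a block (-0.43, adjusted p = 0.0483), with no filter on low counts (-0.42, 0.0286), without experiment 1 of 2iL (-0.54, 0.0251) and without experiment 2 of 120 h (-0.59, 0.0155).

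Tfe3 was lower in both groups given 2iL back than in the groups they started from. In 48 h + 2iL its level was 119, 117, 104 and 117 CPM, below every 48 h library, a change of -0.79 ± 0.19 (adjusted p = 0.00367). Of all genes, 7.67% fell in this comparison and 21.1% showed no overlap. In 96 h + 2iL it was 68.8, 82.5, 49.2 and 60.2 CPM, a change of -0.87 ± 0.20 from 96 h (0.00378), where 5.23% of all genes fell. The difference between both changes did not pass the test (-0.08 ± 0.27, adjusted p = 0.955, 95% interval -0.63 to 0.47). The mean after 48 h, 114 ± 7.05 CPM, did not differ from 2iL by the test (-0.05 ± 0.19, adjusted p = 0.907), whereas that after 96 h, 65.2 ± 14.1 CPM, was below 2iL (-0.86 ± 0.20, 0.000687) and below 48 h + 2iL (-0.80 ± 0.20, 0.00272), where 24.1% of all genes differed. Without the 96 h + 2iL library of experiment 3, the fall from 96 h was -0.75 (adjusted p = 0.021) and the difference from 2iL -0.74 (0.00523), and without the 96 h library of that experiment the fall was -1.03 (0.000317). Against 120 h, the group of the same total time, the difference of 96 h + 2iL was -0.45 ± 0.20 (adjusted p = 0.304). No group without 2iL matched the total time of 48 h + 2iL. There, return of 2iL and the added 24 h in culture cannot be told apart.

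Mitf (ENSMUSG00000035158, chromosome 6, 97807052 to 98021349, plus strand) encodes the relative best known as the master regulator of melanocytes. In 2iL its level was 146, 116, 137 and 82.9 CPM. It was 54.7, 60.8, 47.3 and 39.4 CPM at 24 h and 6.74, 8.89, 8.55 and 17.8 CPM at 48 h. No library of either group overlapped those of 2iL, as was so for 16.4% of all genes at 24 h and 28% at 48 h. At 96 h it was 0.459, 2.02, 2.18 and 1.22 CPM, and at 120 h 1.49, 2.98, 6.75 and 3.13 CPM, so that few reads remained. Mitf fell at every time, with changes of -1.25 ± 0.24 at 24 h (adjusted p = 0.000309), -3.54 ± 0.28 at 48 h, -6.29 ± 0.36 at 96 h and -5.07 ± 0.32 at 120 h.

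Mitf was the only one of the 8 genes that rose on return of 2iL after both withdrawal times, where 7.24% and 4.02% of all genes rose. In 48 h + 2iL it was 32.9, 35.3, 40.3 and 35.4 CPM, above every 48 h library (1.79 ± 0.29, adjusted p = 3.11e-05). In that comparison 21.1% of all genes showed no overlap. In 96 h + 2iL it was 10.9, 5.78, 6.33 and 4.97 CPM, above every 96 h library (2.20 ± 0.45, adjusted p = 0.00133), and 13.1% of all genes showed no overlap there. Neither group reached the 2iL level: the difference was -1.74 ± 0.24 in 48 h + 2iL and -4.09 ± 0.29 in 96 h + 2iL. Against 120 h the difference of 96 h + 2iL was 0.99 ± 0.39 (adjusted p = 0.213), and 1.49 (0.0494) without experiment 3 of 120 h. Transcripts of the pigment enzymes Tyr and Dct, which mark melanocytes, had 0 or 1 counts in each group summed over its 4 libraries, and Tyrp1 and Rpe65 had 0 in all. The 9 melanocyte and pigment epithelium markers together reached 29.8 CPM at most in any library. Of the 9, 2 passed the filter on low counts. These 2 fell at 96 h (median -2.09) and at 120 h (median -3.36), where 19.2% and 22.6% of all genes fell.

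Tfeb (ENSMUSG00000023990, chromosome 17, 47737030 to 47792419, plus strand) encodes the family member best known for driving lysosome production. Its level was 35.3, 40.4, 58.2 and 65.3 CPM in 2iL, 24.3, 36.3, 37.2 and 47.7 CPM at 24 h and 42, 37, 25.6 and 33.7 CPM at 48 h. These 3 groups overlapped, and neither early change passed the test (-0.45 ± 0.29 and -0.52 ± 0.29). At 96 h the level was 14.2, 6.47, 3.92 and 10.1 CPM, and at 120 h 1.12, 5.96, 1.80 and 3.57 CPM. Tfeb thus fell late, with changes of -2.52 ± 0.33 at 96 h (adjusted p = 1.74e-07) and -4.03 ± 0.38 at 120 h (2.6e-10). Neither group overlapped 2iL, as was so for 36.5% and 42% of all genes.

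Return of 2iL did not detectably change Tfeb against the group it started from. In 48 h + 2iL the level was 45.5, 32, 41.6 and 46.5 CPM (0.25 ± 0.29 against 48 h), and in 96 h + 2iL 15.2, 15.3, 5.35 and 10.6 CPM (0.43 ± 0.36 against 96 h, adjusted p = 0.515). The latter was 0.68 (0.292) without the 96 h + 2iL library of experiment 3 and 0.20 (0.788) without the 96 h library of that experiment. Against 120 h, 96 h + 2iL was higher by 1.95 ± 0.42 (adjusted p = 0.00667), where 1.28% of all genes were higher. This call was lost when only the 2 groups compared entered the fit (1.93, adjusted p = 0.0921). Against 2iL, 96 h + 2iL was lower (-2.08 ± 0.32, adjusted p = 3.4e-06), and 48 h + 2iL did not differ by the test (-0.27 ± 0.29). The remaining gene of the family, Tfec, had 0 counts in all 28 libraries.

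Fnip1 (ENSMUSG00000035992, chromosome 11, 54438199 to 54518235, plus strand) encodes 1 of the partners through which folliculin acts on the Rag GTPases. Its level was 33.3, 33.1, 35.7 and 36.3 CPM in 2iL, 31.6, 20.7, 23.3 and 26.3 CPM at 24 h and 19.2, 19.7, 21.4 and 19 CPM at 48 h. All 24 h and 48 h libraries lay below all 2iL libraries, and 16.4% and 28% of all genes showed no overlap at these times. Fnip1 changed by -0.80 ± 0.18 at 48 h (adjusted p = 0.00106), and the -0.45 ± 0.18 at 24 h did not pass the test (0.0917, or 0.0445 without experiment 1 of 24 h). At 96 h the level was 28, 34, 27.9 and 23.9 CPM and at 120 h 31.3, 26.3, 23 and 36.6 CPM, neither different from 2iL by the test but both above 48 h (0.52 ± 0.18, adjusted p = 0.0405, and 0.57 ± 0.18, 0.0152). Between 120 h and 48 h 37.6% of all genes differed. The difference of 96 h from 48 h was lost in 6 of the 8 fits that each left out 1 library (adjusted p up to 0.117, without experiment 2 of 96 h), and that of 120 h was lost without experiment 4 of 120 h (0.44, 0.0801). Both were lost with no filter on low counts (0.164 and 0.0823), and the former also with only the 2 groups in the fit (0.071).

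Given 2iL after 48 h, Fnip1 went above its starting range in all 4 experiments. In 48 h + 2iL its level was 50.6, 49.2, 47.4 and 44.2 CPM, higher than in any library of the other groups. The rise from 48 h was 1.27 ± 0.18 (adjusted p = 5.26e-06), and the 0.47 ± 0.17 above 2iL did not pass the test (0.0708) although the libraries did not overlap, as was so for 16.8% of all genes in that comparison. In 96 h + 2iL the level was 38.9, 38.8, 26.8 and 31.7 CPM, 0.26 ± 0.18 from 96 h (adjusted p = 0.399). The response after 96 h was smaller than that after 48 h (-1.01 ± 0.25, adjusted p = 0.0423), the only such difference among the 8 genes, where 0.921% of all genes passed. It was lost in 13 of the 16 fits that each left out 1 library of these 4 groups (adjusted p 0.0543 to 0.124, the highest without the 96 h + 2iL library of experiment 3) and with no filter on low counts (0.106).

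The promoter of Fnip1 is shown because Fnip1 and Rragc are the only ones of the 8 genes with a CACGTG E-box, the core letters that TFE factors bind, within 250 bases before to 50 after the annotated start. CACGTG, which reads the same on both strands, was present in 7.15% of 32851 RefSeq promoters of that length (GRCm38.p6), and in at least 1 promoter of 8.09% of 27025 genes. The 250 bases before the Fnip1 start, chr11:54437929-54438178, plus strand, are given 5′ to 3′ with the E-box in capitals, and below them the 30 bases around the E-box of Rragc, chr4:123917309-123917338, plus strand. The E-box begins at position -75 in Fnip1 and -112 in Rragc, counted from the start.
Fnip1 promoter: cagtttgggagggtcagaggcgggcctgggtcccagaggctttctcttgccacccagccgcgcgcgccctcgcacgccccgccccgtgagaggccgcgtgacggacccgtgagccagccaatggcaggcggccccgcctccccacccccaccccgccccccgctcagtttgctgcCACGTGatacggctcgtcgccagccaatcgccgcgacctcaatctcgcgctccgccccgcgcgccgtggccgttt
Rragc E-box: ggtgattccgggCACGTGatagtaccactt
Over all annotated starts, the extended form TCACGTGA was in 0 of the 8 genes and CACATG, the core of the M-box, in 0 as well (1.12% and 15.9% of all genes, CACATG sought on both strands). A match is a description of the letters, and binding was not measured.

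Flcn (ENSMUSG00000032633, chromosome 11, 59791408 to 59810016, minus strand), which encodes folliculin, was low in all groups and passed the test in none of the 10 comparisons by edgeR (2 at an unadjusted p under 0.05, 0 by DESeq2). Among the 21 pairs of groups 1 differed, 48 h + 2iL being above 120 h without overlap (0.94 ± 0.32, adjusted p = 0.0205), where 34.5% of all genes differed. This was lost without experiment 3 of 48 h + 2iL (0.86, 0.0541) or of 120 h (0.79, 0.08). Its means ranged from 8.19 ± 2.92 CPM at 120 h to 15.9 ± 2.44 CPM in 48 h + 2iL, with 12.9 ± 5.85 CPM in 2iL. The 2iL libraries alone ran from 7.73 to 20.7 CPM. The 120 h value, -0.65 ± 0.32 against 2iL (adjusted p = 0.0966), passed without experiment 1 of 120 h (-0.91, 0.0343) or without experiment 2 of 2iL (-0.85, 0.0367). At 24 h the 95% interval of the change was -0.72 to 0.58.

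Fnip2 (ENSMUSG00000061175, chromosome 3, 79455974 to 79567796, minus strand), the second folliculin partner, had means from 9.43 ± 3.05 CPM at 96 h to 14.7 ± 5.63 CPM at 24 h, and none of its 10 comparisons passed in edgeR (0 at an unadjusted p under 0.05, 0 by DESeq2). Its 3′ end overlaps an antisense gene that had 0 counts in all libraries. Unlike Fnip1, it showed no detectable rise in 48 h + 2iL against 48 h (0.11 ± 0.35, adjusted p = 0.882). Whether the 2 partners differed from each other was not tested.

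Rragc (ENSMUSG00000028646, chromosome 4, 123917446 to 123936997, plus strand) and Rragd (ENSMUSG00000028278, chromosome 4, 32983037 to 33022180, plus strand) encode the GTPases on which the folliculin complex acts. Rragc had means from 21.9 ± 5.79 CPM at 96 h to 33.2 ± 8.46 CPM at 24 h and passed in none of the 10 comparisons in edgeR (1 at an unadjusted p under 0.05, 0 by DESeq2). Among the 21 pairs of groups it was lower at 96 h than at 24 h (-0.60 ± 0.23, adjusted p = 0.0401) and at 120 h than at 24 h (-0.59 ± 0.23, 0.0367), where 34.9% and 45.1% of all genes differed. Each of these calls was lost in 5 of the 8 fits that left out 1 library (adjusted p up to 0.164 and 0.16), with library totals (0.091 and 0.141), with no filter (0.0877 and 0.0801) and with only the 2 groups in the fit (0.106 and 0.0767). Its 48 h + 2iL libraries, 28.6 to 35.7 CPM, lay above all 2iL libraries, 20.6 to 26.1 CPM, but the difference was 0.42 ± 0.23 (adjusted p = 0.262). In that comparison 16.8% of all genes showed no overlap. The change of Rragc across groups passed without experiment 1 of 96 h + 2iL (adjusted p = 0.0352) or without experiment 4 of 24 h (0.0335).

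Rragd, which is itself known as a target of TFE factors in other cells, was 51.2, 42.5, 62.7 and 50.5 CPM in 2iL and 35.2, 48.1, 58.6 and 38 CPM at 24 h. It was 64.3, 65.7, 92.8 and 65 CPM at 48 h and 67.9, 83.3, 93.3 and 77.5 CPM at 96 h. All libraries of these 2 later groups lay above all those in 2iL, and 28% and 36.5% of all genes showed no overlap there. At 120 h it was 66.8, 77.5, 62.1 and 65.6 CPM, with the library of experiment 3 just within the 2iL range. Rragd rose at 96 h by 0.63 ± 0.19 (adjusted p = 0.00738). At 48 h (0.47 ± 0.19, 0.0682) and 120 h (0.39 ± 0.19, 0.0934) it did not pass, but with the experiment number as a block it passed at both times (0.47, adjusted p = 0.0293, and 0.41, 0.0365). The 120 h value passed also with library totals in place of TMM (0.51, 0.0262).

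Return of 2iL did not detectably change Rragd (0.11 ± 0.19 after 48 h, -0.06 ± 0.19 after 96 h), and it stayed above the 2iL group. In 48 h + 2iL it was 52.1, 61.4, 116 and 79.1 CPM, 0.58 ± 0.19 above 2iL (adjusted p = 0.0428). This call rested on single libraries: without experiment 3 of 48 h + 2iL the difference was 0.31 (0.341), and it was also lost without experiment 4 of that group, without experiment 1, 2 or 4 of 2iL and with only the 2 groups in the fit (0.58, 0.0767). In 96 h + 2iL it was 75, 82.1, 70.6 and 81.3 CPM, above every 2iL library, as 35.8% of all genes were above or below (0.57 ± 0.19, 0.0156), and 0.48 (0.066) without experiment 2 of 2iL.

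**Figure D2:**
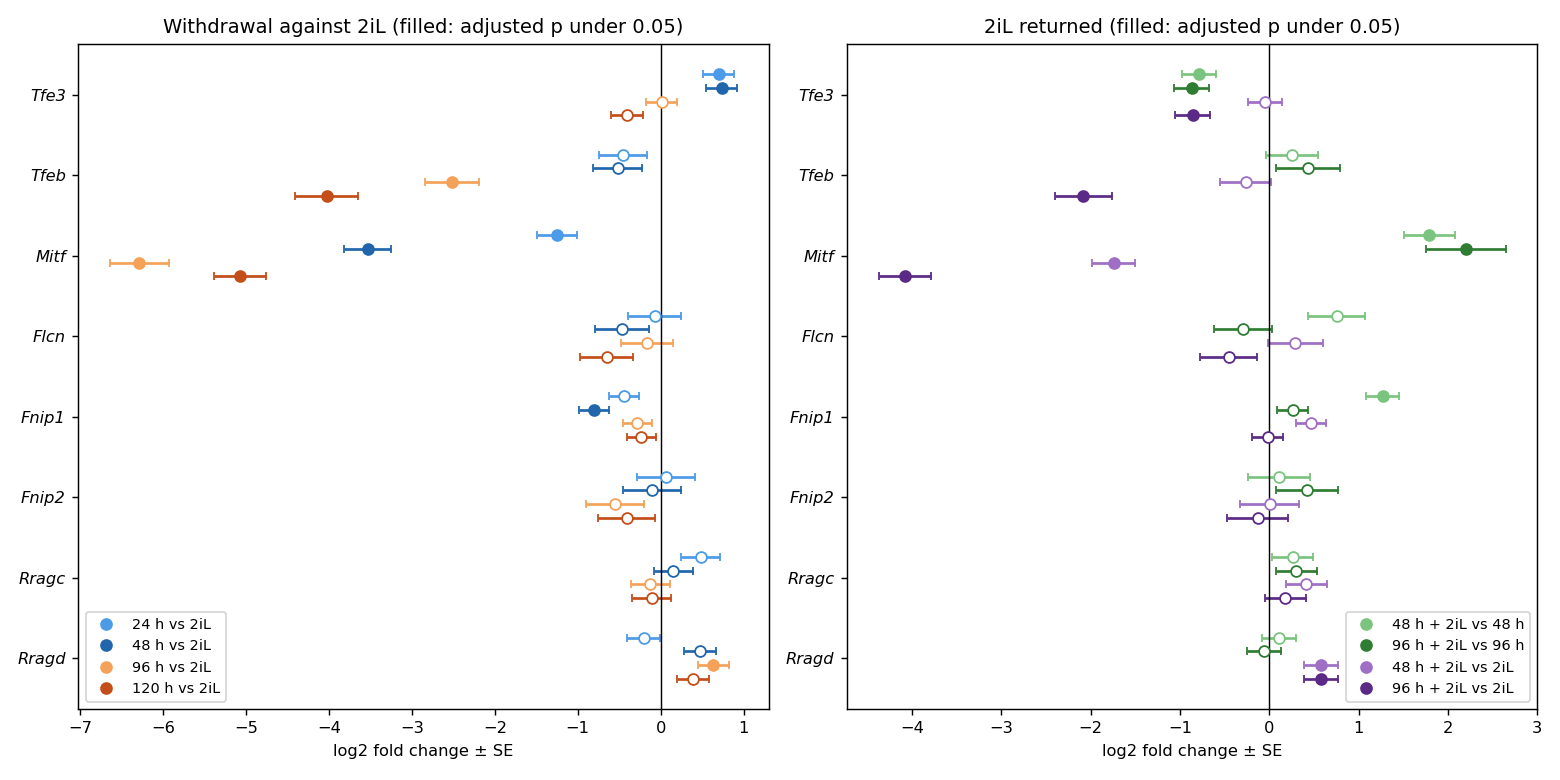
Log2 fold change ± SE (horizontal axis) of each of the 8 genes, for the 4 withdrawal times against 2iL on the left and for the 2 re-fed groups against the group they started from and against 2iL on the right. Filled points passed the edgeR test (adjusted p under 0.05). Mitf and Tfeb lie farthest to the left, and Tfe3 is positive at 24 and 48 h and negative on return of 2iL. Fnip1 is the other gene besides Mitf with a called rise from the group it started from. Rragd is called above 2iL in both re-fed groups.

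Counted over the 8 genes, 1 rose and 1 fell at 24 h against 2iL, where 7.68% of all genes rose and 8.29% fell. At 48 h 1 rose and 2 fell (14.6% and 13.2% of all genes), at 96 h 1 rose and 2 fell (21.9% and 19.2%), and at 120 h 0 rose and 2 fell (24.6% and 22.6%). The 0 rises at 120 h in edgeR compare with 1 at an unadjusted p under 0.05 (Rragd), 0 by DESeq2 and 1 with the experiment block (Rragd). On return of 2iL after 48 h 2 rose and 1 fell (7.24% and 7.67%), and after 96 h 1 rose and 1 fell (4.02% and 5.23%). Against 2iL, 1 was higher and 1 lower in 48 h + 2iL (6.14% and 5.49%), and 1 higher and 3 lower in 96 h + 2iL (21.4% and 19.5%).

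Ranked by mean, the levels of Tfe3 ran from 48 h and 24 h through 96 h, 2iL, 48 h + 2iL and 120 h to 96 h + 2iL, and only 24 h and 96 h differed as neighbours (0.69 ± 0.19, adjusted p = 0.00477, where 34.9% of all genes differed). For Tfeb the order was 2iL, 48 h + 2iL, 24 h, 48 h, 96 h + 2iL, 96 h and 120 h, with a step between 48 h and 96 h + 2iL (1.56 ± 0.33, 0.000323, with 36% of all genes). Mitf ran 2iL, 24 h, 48 h + 2iL, 48 h, 96 h + 2iL, 120 h and 96 h, with steps from 2iL to 24 h and from 48 h + 2iL to 48 h, whose values are given above. Fnip1 ran 48 h + 2iL, 2iL, 96 h + 2iL, 120 h, 96 h, 24 h and 48 h, and Rragd 96 h, 96 h + 2iL, 48 h + 2iL, 48 h, 120 h, 2iL and 24 h. No neighbours differed in these 2 genes, nor in Flcn (48 h + 2iL, 2iL, 24 h, 96 h, 48 h, 96 h + 2iL, 120 h), Fnip2 (24 h, 2iL, 48 h + 2iL, 48 h, 96 h + 2iL, 120 h, 96 h) or Rragc (24 h, 48 h + 2iL, 96 h + 2iL, 48 h, 2iL, 120 h, 96 h).

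The genes whose log2 level followed each of the 8 most closely over the 28 libraries were named from 7672 candidates, as a description, since all share the same libraries and groups. Tfe3 was most like Dppa4 (Pearson r 0.92), a chromatin-associated gene of pluripotent cells, followed by Srp19 and Isyna1 (0.92 and 0.91). Tfeb was most like Upp1 and Tdh (both 0.94), a nucleoside and a threonine catabolic enzyme, and the Kruppel-like factor Klf5 (0.94). Mitf was most like Lrrc34 (0.96), the naive factor Klf4 (0.94) and Marc2 (0.94). Fnip1 followed Uap1l1 (0.88), the NODAL antagonist Lefty1 (0.84) and Ap3b2 (0.82), and Rragd followed D10Wsu102e (0.86), the laminin chain Lamb1 (0.83) and Ramp2 (0.80). For Flcn, Fnip2 and Rragc no gene exceeded 0.75.

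The TFE factors are best known for lysosomal and autophagy genes, and 44 such genes were followed as a list, of which 42 passed the filter. Against 2iL, 15 of the 42 fell and 0 rose at 24 h in edgeR's test (median log2 fold change -0.51), with 2 rises at an unadjusted p under 0.05 and 1 by DESeq2. At 48 h 23 fell (-0.66). At 96 h 22 fell and 2 rose (-0.49; 21 and 1 without the 96 h library of experiment 3), and at 120 h 23 fell and 4 rose (-0.74). The median over all genes was 0.01 at 24 h and 0.02 at 48 h, and falls made up 8.29%, 13.2%, 19.2% and 22.6% of all genes at these times. All 15 that fell at 24 h fell also at 48 h, and 13 were lower at all 4 times. Single omissions of a library gave 13 to 17 falls at 24 h and 20 to 23 at 48 h. Mitochondrially encoded genes, followed as a sign of RNA quality, moved with the later groups: of 9 tested, 3 fell at 96 h, 6 at 120 h (median -0.48) and 6 in 96 h + 2iL against 2iL (-0.46), while the medians at 24 and 48 h were 0.08 and -0.02. Their summed level was 22122 to 29340 CPM in 2iL and 10316 to 15795 CPM at 120 h, and their part in the late lysosomal falls was not tested.

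These falls stood beside the rise of Tfe3 RNA at 24 and 48 h. Hexa, a subunit of the lysosomal hexosaminidase, went from 78.7 ± 13.9 CPM in 2iL to 22.4 ± 4.40 at 24 h and 17.2 ± 5.11 at 48 h (-1.80 ± 0.22 and -2.20 ± 0.23). Lamp2, a lysosomal membrane glycoprotein, went from 111 ± 8.72 to 33.1 ± 3.57 and 31.2 ± 6.16 CPM (-1.75 ± 0.17 and -1.83 ± 0.17). The cholesterol carrier Npc2 went from 1080 ± 197 to 360 ± 53.8 and 312 ± 26.4 CPM (-1.58 ± 0.13 and -1.79 ± 0.13). Among the late falls were Glb1, the lysosomal beta-galactosidase (-2.35 ± 0.25 at 96 h), and the protective protein Ctsa (-1.93 ± 0.20). Not all genes of the list fell: the autophagy gene Wipi1 rose at 120 h (0.82 ± 0.34, adjusted p = 0.0438).

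When 2iL was returned after 48 h, 18 of the 42 rose and 0 fell in edgeR's test (median 0.59; 0 falls also at an unadjusted p under 0.05 and by DESeq2), where 7.24% of all genes rose. Of the 23 that had fallen at 48 h, 16 were among these (69.6% of the falls, 88.9% of the rises), an overlap between comparisons that share the 48 h libraries. Hexa rose by 1.95 ± 0.23, Neu1, a sialidase, by 1.5 ± 0.48 and Gaa, the acid alpha-glucosidase, by 1.35 ± 0.31. Against 2iL, 7 of the 42 were still lower in 48 h + 2iL (3 to 6 lower when 1 library was left out), with Glb1 (-1.04 ± 0.23), Asah1 (-0.93 ± 0.26) and Ctsa (-0.88 ± 0.19) lowest among those with 10 CPM or more. Of all genes, 5.49% were lower there.

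After 96 h the return of 2iL gave 4 rises and 1 fall among the 42 (median 0.39), where 4.02% of all genes rose, among them Lamp2 (1.24 ± 0.17), Hexa (1.06 ± 0.21) and Npc2 (0.90 ± 0.12). Without the 96 h + 2iL library of experiment 3 7 rose. Against 120 h, where 1.28% of all genes rose, 5 rose and 1 fell, and 10 rose without that library. Against 2iL 14 were lower and 3 higher (9 and 4 without it), among the lower ones Glb1 (-1.79 ± 0.24) and Ctsa (-1.5 ± 0.20). Of all genes, 19.5% were lower and 21.4% higher in that comparison. In edgeR 0 of the 42 passed the test of the difference between the 2iL responses after 96 and 48 h (9 at an unadjusted p under 0.05, all lower after 96 h, and 0 by DESeq2).

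**Figure D3:**
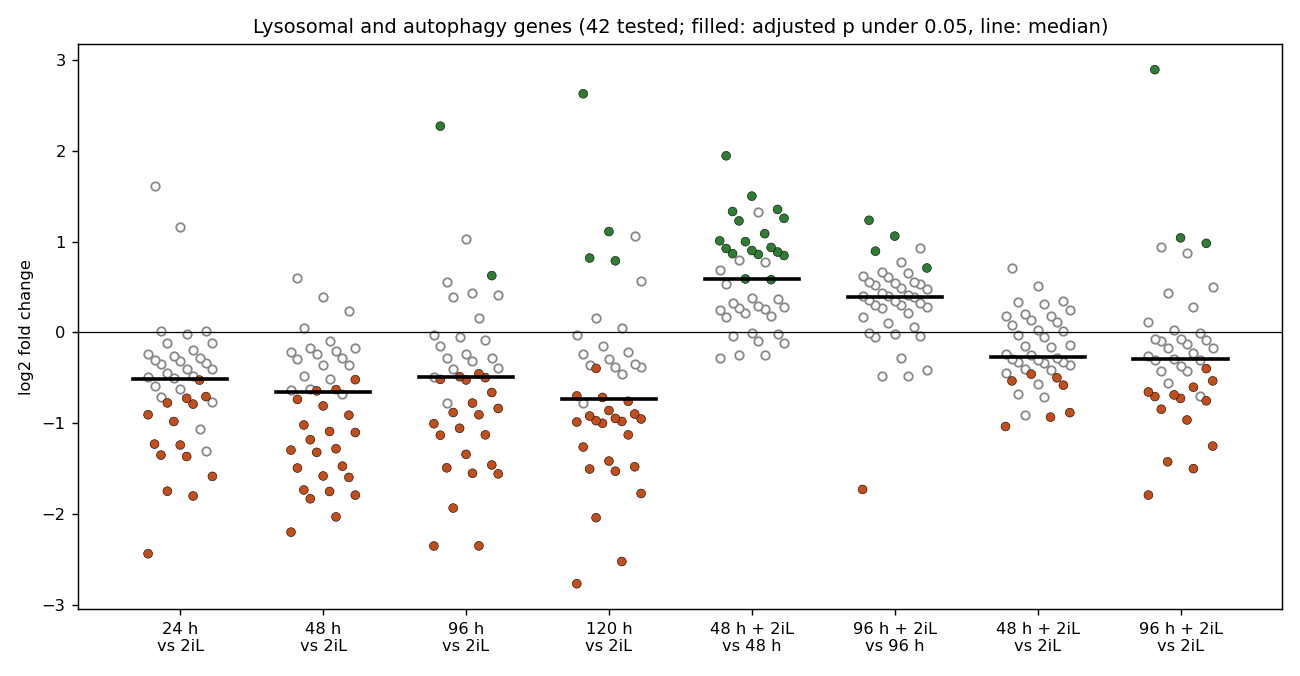
Log2 fold change (vertical axis) of the 42 tested lysosomal and autophagy genes in 8 comparisons. Filled points passed the edgeR test, orange for falls and green for rises, and the black lines are medians, which run from -0.74 at 120 h to 0.59 for 48 h + 2iL against 48 h.

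Summed over the 44 genes, the level was 4356 to 5018 CPM in 2iL. It was 2678 to 2846 CPM at 24 h, 2248 to 2502 CPM at 48 h, 2540 to 2706 CPM at 96 h and 2369 to 2760 CPM at 120 h. It was 3772 to 4224 CPM in 48 h + 2iL and 2943 to 4116 CPM in 96 h + 2iL, the lowest of the latter being the library of experiment 3. By this sum, all libraries in which 2iL was present lay above all those without it. The sum gives most weight to abundant genes such as Npc2 and does not describe each gene of the list. In 96 h + 2iL against 96 h, 4 of the 42 tested genes rose and 1 fell. The 16 pluripotency genes gave another order, since 96 h + 2iL held a median of 1053 CPM of them, below the 1167 CPM at 48 h. Markers of osteoclasts and macrophages, cells rich in lysosomes, summed to 3.10 to 31.3 CPM per library over 8 genes, and Ctsk, Ocstamp and Adgre1 had 4 counts at most in any group summed over its libraries. Of the 8, 2 passed the filter on low counts. Against 2iL, 1 of these fell at 24 h, where 8.29% of all genes fell, and 0 were called at 48, 96 or 120 h in edgeR.

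**Figure D4:**
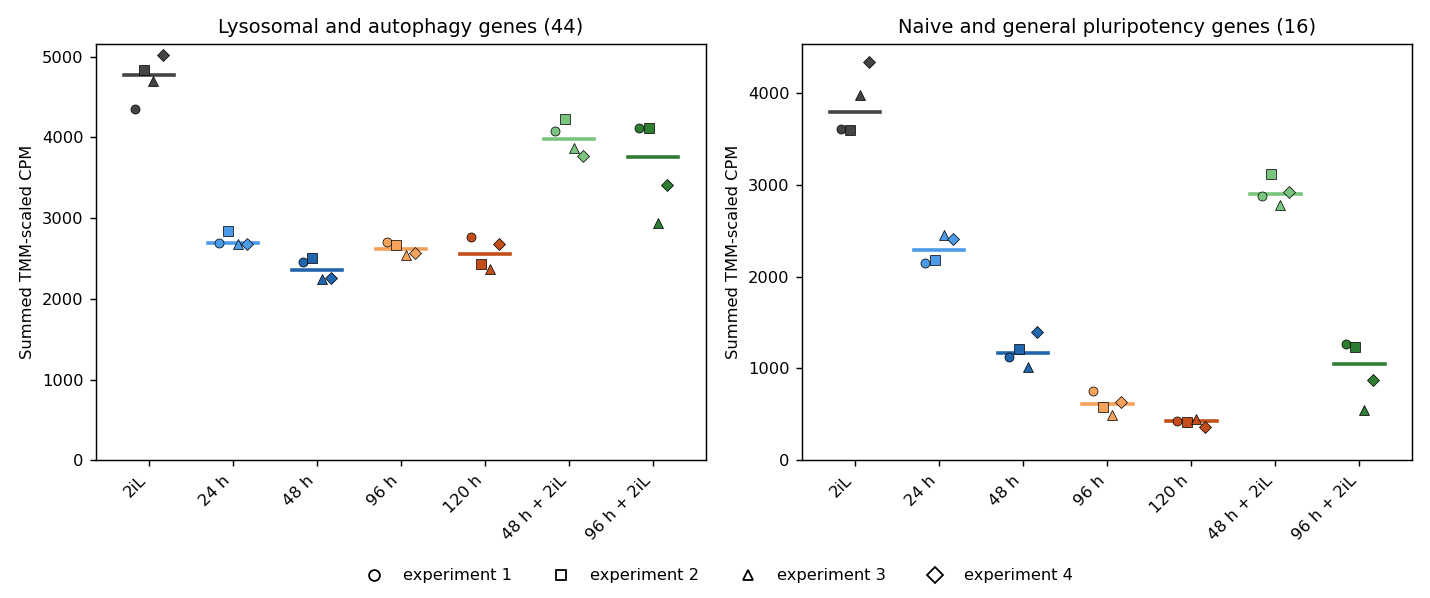
Summed level (TMM-scaled CPM, axes from 0) of the 44 lysosomal and autophagy genes on the left and of 16 naive and general pluripotency genes on the right, in each library. Symbols mark the experiments and lines the group medians. On the left, the sums of the libraries with 2iL lie above those of all others. On the right, the 96 h + 2iL libraries lie near those at 48 h, with experiment 3 lowest at 549 CPM.

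E-boxes were common in this list: 15 of the 32 genes with a RefSeq promoter held CACGTG (46.9%, against 8.09% of all genes), 8 of 32 held TCACGTGA (25%, against 1.12%), which contains it, and 8 of 32 held CACATG (25%, against 15.9%). The list was drawn up as targets of TFE factors, which bind this motif. Its high share therefore follows from the choice of genes and is not a finding of these data. The 30 bases around the E-boxes of 4 genes are shown, Cln3 for the extended form, Lamp1 for its row of 4 E-boxes, and Glb1 and Ctsa as genes with large late falls. All read 5′ to 3′ on the strand of the gene with CACGTG in capitals, in GRCm38.p6: Cln3 at chr7:126583340-126583369 (minus), Lamp1 at chr8:13159088-13159117 and chr8:13159134-13159163 (plus), Glb1 at chr9:114401018-114401047 (plus) and Ctsa at chr2:164833749-164833778 (plus).
Cln3: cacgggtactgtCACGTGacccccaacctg
Lamp1, farthest from the start: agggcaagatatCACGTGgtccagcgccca
Lamp1, nearest the start: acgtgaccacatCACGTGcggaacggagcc
Glb1: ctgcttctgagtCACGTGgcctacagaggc
Ctsa: tgagcaaactgtCACGTGatgcagatgctc
Of the 31 genes with both a promoter and a test, 15 held CACGTG and 16 did not. At 48 h 9 and 10 of these fell (medians -0.74 and -0.88), and in 48 h + 2iL against 48 h 7 and 9 rose. In 96 h + 2iL against 96 h, 0 rose and 1 fell with CACGTG in edgeR, and 4 rose and 0 fell without it (medians 0.43 and 0.37). The difference between the sets with and without the E-box in this window was not tested. Cln3, a lysosomal membrane protein, and Lamp1, both named for their sequences after their values were seen, went from 41.5 ± 12.7 to 22 ± 4.37 CPM and from 618 ± 112 to 352 ± 86.1 CPM between 2iL and 48 h (-0.91 ± 0.27 and -0.81 ± 0.21).

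Among 13 partners and relatives of folliculin, 3 fell at 24 h, 5 at 48 h, 3 at 96 h and 5 at 120 h, where 2 rose. Falls made up 8.29%, 13.2%, 19.2% and 22.6% of all genes at these times. Without experiment 3 or 4 of 120 h or experiment 4 of 2iL 3 fell at 120 h, and without experiment 2 of 120 h or of 2iL 1 rose. Gabarapl2, of the family of autophagy proteins that can bind the folliculin complex, fell at every time, from 72.8 ± 29.6 CPM in 2iL to 33.7 ± 15.9 at 24 h and 16.7 ± 3.38 at 120 h (-1.11 ± 0.30 and -2.11 ± 0.32). Smcr8, whose complex is built like that of folliculin, fell at 48 h (-1.17 ± 0.29) and 120 h (-0.76 ± 0.28). Prkag2, a subunit of the energy sensor AMPK, fell at 24 h (-1.07 ± 0.29), rose with 2iL after 48 h (1.31 ± 0.26) and was above 2iL at 120 h (1.06 ± 0.24). Prkag1 fell from 48 h on (-0.77 ± 0.16 at 48 h, -0.91 ± 0.16 at 120 h).

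The other Rag and Ragulator genes, which anchor mTORC1 at the lysosome, were followed as a list of 8, of which 2 were called in any of the 4 withdrawal times. At each time 1 rose, where 7.68%, 14.6%, 21.9% and 24.6% of all genes rose, and at 120 h 1 fell (22.6% of all genes). Lamtor4 rose at 24 h (0.48 ± 0.16) and 48 h (0.42 ± 0.16, adjusted p = 0.0499), and was lower at 120 h (-0.41 ± 0.16). No gene of the list rose in 5 of the 8 fits that left out 1 library at 24 h and in 5 of 8 at 48 h, and none fell in 4 of 8 at 120 h. Rragb rose at 96 h (1.08 ± 0.38) and 120 h (1.05 ± 0.38) and was higher in 96 h + 2iL than in 2iL (1.31 ± 0.38). Its rise was lost at 96 h without experiment 1 of 2iL or experiment 3 of 96 h, and at 120 h without experiment 1 of 2iL or experiment 2 of 120 h. Of 11 mTORC1 and TSC genes 0 changed at 24 or 48 h by edgeR's test (0 at an unadjusted p under 0.05 and 0 by DESeq2), and at 120 h 1 rose and 3 fell (24.6% and 22.6% of all genes). Deptor, an mTOR inhibitor, went from 75.4 ± 24.7 CPM in 2iL to 25.3 ± 7.88 at 120 h (-1.57 ± 0.26), and it was lower in 96 h + 2iL than at 96 h (-1.06 ± 0.27). Between 96 h + 2iL and 120 h 0 of the 11 genes passed edgeR's test (0 at an unadjusted p under 0.05 and 0 by DESeq2). Tsc2 (-0.58 ± 0.22) and the translation repressor Eif4ebp1 (-0.93 ± 0.23) were the other falls at 120 h, and Tbc1d7 the rise (1.32 ± 0.41).

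Of 17 tested GATOR and nutrient sensor genes, 2 rose at 48 h (1 in 5 of the 8 fits that left out 1 library) and 3 rose and 3 fell at 120 h (1 fell without experiment 4 of 120 h). Of all genes, 14.6% rose at 48 h, and 24.6% rose and 22.6% fell at 120 h. Gatsl2, which encodes a relative of the cytosolic arginine sensor, had the widest change, from 2.41 ± 1.13 CPM in 2iL to 28.1 ± 5.58 at 96 h (3.48 ± 0.49), and fell with 2iL to 7.12 ± 2.88 (-1.95 ± 0.43). Sesn3, a leucine sensor relative, rose at 48 h (1.25 ± 0.27). Of 15 tested regulators of TFE3 location, 2 rose and 3 fell at 24 h (7.68% and 8.29% of all genes) and 2 rose and 4 fell at 120 h (24.6% and 22.6%). Leaving out 1 library gave 1 to 2 rises and 1 to 3 falls at 24 h, and 0 to 2 rises and 3 to 4 falls at 120 h. Gsk3b, a kinase of the GSK3 type that CHIR99021 inhibits, was lower at 24 h (-0.78 ± 0.13) and 48 h (-0.69 ± 0.13) and rose with 2iL after 48 h (0.47 ± 0.13). Map4k3 was lower at 24 h (-1.01 ± 0.32) and 120 h (-1.01 ± 0.31), Sfn at 120 h (-2.59 ± 0.53), and the calcineurin subunit Ppp3ca fell with 2iL after 48 h (-0.98 ± 0.18).

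Other known regulators of exit, 16 genes, gave 6 rises at 24 h and 4 rises and 3 falls at 48 h. Of all genes, 7.68% rose at 24 h, and 14.6% rose and 13.2% fell at 48 h. At 96 h 3 rose and 4 fell (21.9% and 19.2% of all genes), and at 120 h 3 rose and 5 fell (24.6% and 22.6%). On return of 2iL 3 fell after 48 h and 5 after 96 h (7.67% and 5.23% of all genes). In edgeR 0 rose in either return, with 1 and 2 at an unadjusted p under 0.05 and 0 by DESeq2. Jarid2, a Polycomb cofactor, rose at 24 h (0.95 ± 0.13) and 48 h (1.10 ± 0.13), and Rbpj, the Notch effector, at 24 h (0.98 ± 0.18). Etv4, an ETS factor downstream of ERK, rose at 24 h (1.10 ± 0.32) and fell with 2iL after 48 h (-2.39 ± 0.36) and 96 h (-3.03 ± 0.43). Esrrb, the naive nuclear receptor known as a TFE3 target, was 195 ± 28 CPM in 2iL, 99.4 ± 21.4 at 24 h, 30.4 ± 4.12 at 48 h, 9.16 ± 4.62 at 96 h and 6.24 ± 0.989 at 120 h. It was 163 ± 18.4 CPM in 48 h + 2iL and 36.0 ± 24.2 CPM in 96 h + 2iL, so it fell while Tfe3 RNA rose at 24 and 48 h.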

How the data were processed

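The deposited files hold counts per gene for 31053 genes in each of 28 libraries, and the authors' series table holds CPM for 30386 genes. Per the submitters' processing notes bcl2fastq, STAR 2.6.0a, HTSeq and mm10 were used, with no role stated. The deposited CPM equalled the CPM computed from the counts in 28 of 28 columns (tolerance 1e-06) and served only for symbols, and no column was left unmapped. The files call the counts unique, and whether that means alignments or molecular identifiers is not given in the sources used here. Alignments at more than 1 place, 52.3% to 60.1% of those listed, were not counted, so genes with close copies are undercounted, and 6.68% to 8.58% lay in no gene. Replicate pairs differed beyond sampling noise (chi-square per gene 2.48 to 11.3 over 42 pairs), and 0 pairs were identical.

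Genes were filtered with filterByExpr by group (a minimum of 10, and 15 summed over libraries), and 11080 remained. One edgeR 4.0.16 quasi-likelihood model (R 4.3.3, limma 3.58.1) with a mean per group and TMM scaling was fitted to all 28 libraries, and 10 comparisons, all 21 pairs of groups and the change across groups were tested, two-sided, with Benjamini-Hochberg adjustment over all genes. Standard errors were derived from the F statistic and the fold change. The script was tested on simulated data. Alternatives were the experiment number as a block, library totals, DESeq2 1.42.0, no filter, a stricter filter, only the groups compared, and leaving out each library. Alternatives for the counts over lists, for neighbours and for pairs of groups were added after seeing the data.

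The experiment number in the titles was read as a shared experiment. Deviations of libraries with the same number correlated at a median of 0.07 over 84 pairs (-0.04 to 0.42), and 25 of 28 libraries were on average most like their own number. The 8 genes and the 17 gene lists, among them 8 pathway lists, were chosen with earlier results of these data known. Named pathway genes are, per list and comparison, up to 3 called rises and 3 called falls of largest size with at least 10 CPM in the higher group, of which some are not reported here, and genes of like pattern are the 3 with the highest correlation per gene. The mitochondrially encoded genes made up 1.14% to 3.10% of counts. Positions are from GENCODE M21 (GRCm38), and promoters from RefSeq (GRCm38.p6), where 8 of 8 genes and 32 of the 44 lysosomal genes matched. Figures were drawn with matplotlib 3.10.9 in Python 3.11.15.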

Additional observations from a re-analysis of the deposited data

Results flagged for a closer look

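Among 56 sets of 4 libraries (8 genes in 7 groups), 4 held a library far from the other 3 by Dixon's 95% criterion, where chance gives about 1 in 20. Tfe3 was 76.3 CPM in the 96 h library of experiment 3, and the nearest of the others was 128 CPM. Tfe3 was also low in the 48 h + 2iL library of experiment 3, at 104 CPM against 117 CPM for the nearest. Rragc was 40.8 CPM in the 96 h + 2iL library of experiment 1 (nearest 23.9 CPM), and Rragd was 92.8 CPM in the 48 h library of experiment 3 (nearest 65.7 CPM).

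Fnip1 responded differently to 2iL after the 2 withdrawal times by the test of that difference, -1.01 ± 0.25 on the log2 scale (edgeR adjusted p = 0.0423), since it rose from 48 h and not detectably from 96 h. Most single omissions of a library lost this call.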

How the results depend on the processing

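The numbers of the 8 genes called and of all genes called kept within 1.5 times with DESeq2, library totals and the stricter filter, except that DESeq2 called 168 genes for the difference of 2iL responses (102 in the model reported). With the replicate block, 4 of the 8 genes changed at 120 h in place of 2, and 194 genes for the difference of responses, and it changed no other count of the 8 genes or of all genes beyond 1.5 times. It added calls for Tfe3 at 120 h (-0.43) and Rragd at 48 h (0.47) and 120 h (0.41), and among the lysosomal genes 8 in place of 4 rose in 96 h + 2iL against 96 h. With no filter the difference of responses had 0 of the 8 and 321 genes, and 493 in place of 291 genes differed between 96 h + 2iL and 120 h. With only the groups compared in the fit, the latter had 115 genes and 0 of the 8, and 48 h + 2iL against 2iL 1 of the 8.

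Leaving out 1 library gave 1 to 2 of the 8 and 759 to 1266 genes for 48 h + 2iL against 2iL, 0 to 1 and 49 to 136 for the difference of responses, and 1 to 2 and 158 to 450 for 96 h + 2iL against 120 h. For 96 h + 2iL against 96 h it gave 658 to 1323 genes. No called change of the 8 genes turned its direction under any alternative run. Of their log2 fold changes with 1 library left out, 677 kept their side of the threshold, 19 calls were lost and 8 gained, and the cause was not tested. Library totals moved the median of all genes at 120 h to 0.13, and the share of rises among calls from 49% to 38.6% for the difference of responses. Where few counts remained the fitted changes were less precise, with standard errors of 0.45 for Mitf and 0.36 for Tfeb in 96 h + 2iL against 96 h.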
